A study of Mus musculus with 14 samples.

Results

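The 7 genes described here encode receptors, signal carriers and repressors of the transforming growth factor beta (TGF-beta) pathway. They were chosen by symbol, as the rows Tgfbr1, Tgfbr2, Tgfbr3, Smad3, Smad7, Ski and Skil of a table of 25017 genes, and all 7 were found and passed the filter on low counts. RNA was sequenced from donor-derived CD4+ T cells of mice with and without chronic graft-versus-host disease (cGVHD), a disease in which transplanted donor T cells attack the recipient's tissues. Recipients of the BALB/C strain received T-cell-depleted bone marrow of C57BL/6 (B6) mice, with donor splenocytes in the cGVHD animals and without them in the GVHD-free animals. At day 30, cells were sorted by surface PSGL1, a selectin ligand, into a low (PSGL1lo) and a high (PSGL1hi) fraction. The 14 libraries form 7 groups of 2: GVHD-free spleen PSGL1lo, cGVHD spleen PSGL1lo, cGVHD spleen PSGL1hi, cGVHD liver PSGL1lo, cGVHD liver PSGL1hi, cGVHD lung PSGL1lo and cGVHD lung PSGL1hi. No allele, transgene or drug is named for any group, and no age is stated. Column names of the spleen libraries hold the tag WT or WTCD, and those of the liver and lung libraries hold neither. Splenocytes were given to the cGVHD animals only, so the disease cannot be told apart from the kind of graft. Nothing in the labels ties a replicate to a separate animal, so the p-values measure only how far these samples differ, and that spread may be technical.

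TGF-beta binds the receptor kinase TGFBR2, which then recruits and phosphorylates the kinase TGFBR1, and the coreceptor betaglycan, encoded by Tgfbr3, presents ligand to them. TGFBR1 phosphorylates SMAD2 and SMAD3, which join SMAD4 and enter the nucleus to regulate genes. SMAD7 blocks the receptor, and SKI and SKIL (also called SnoN) hold Smad complexes in a repressed state, while Smad7 and Skil are themselves known target genes of the pathway. In T cells TGF-beta is known for restraining effector differentiation, for inducing regulatory T cells and for raising the residency integrin CD103 in tissues.

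Promoters are shown for 3 genes that were lower together in lung PSGL1lo cells, Tgfbr2, Smad3 and Ski, and for Tgfbr1, which did not pass the test there. The sequences are the 250 bases before the annotated start, 5′ to 3′ on the gene's strand, from RefSeq on GRCm38.p6. In capitals are the Smad-binding element CAGAC and the GC box GGGCGG, searched on both strands, with no overlap between the motifs in these windows.
Tgfbr2, chr9:116175364-116175613, minus strand: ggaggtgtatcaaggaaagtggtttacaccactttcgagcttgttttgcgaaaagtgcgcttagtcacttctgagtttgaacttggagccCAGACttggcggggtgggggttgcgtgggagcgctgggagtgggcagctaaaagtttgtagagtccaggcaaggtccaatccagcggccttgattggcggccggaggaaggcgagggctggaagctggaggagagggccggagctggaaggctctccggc
Smad3, chr9:63757995-63758244, minus strand: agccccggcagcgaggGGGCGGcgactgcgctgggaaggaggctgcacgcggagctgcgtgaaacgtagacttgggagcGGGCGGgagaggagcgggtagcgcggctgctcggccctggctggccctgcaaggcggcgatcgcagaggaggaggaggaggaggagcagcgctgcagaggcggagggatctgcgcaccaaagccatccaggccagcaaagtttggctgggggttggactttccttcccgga
Ski, chr4:155222536-155222785, minus strand: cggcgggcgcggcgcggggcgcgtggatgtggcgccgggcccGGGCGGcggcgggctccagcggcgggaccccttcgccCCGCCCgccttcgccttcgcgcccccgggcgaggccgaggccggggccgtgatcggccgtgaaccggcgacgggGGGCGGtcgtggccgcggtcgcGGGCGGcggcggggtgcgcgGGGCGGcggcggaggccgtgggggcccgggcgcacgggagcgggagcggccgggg
Tgfbr1, chr4:47352972-47353221, plus strand: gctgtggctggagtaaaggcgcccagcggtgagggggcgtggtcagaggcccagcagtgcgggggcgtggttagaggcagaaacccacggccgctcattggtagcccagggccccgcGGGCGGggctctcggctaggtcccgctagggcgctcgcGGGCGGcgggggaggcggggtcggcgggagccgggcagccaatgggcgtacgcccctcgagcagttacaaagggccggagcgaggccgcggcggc
The Tgfbr2 window held 1 CAGAC, 155 bases before the start, and 0 GC boxes. The windows of Smad3, Ski and Tgfbr1 held 0 CAGAC and 2, 5 and 2 GC boxes. Of 32851 RefSeq promoter windows of the same length, 42.2% held CAGAC and 32.7% the GC box. Entries on 1 chromosome were left out before genes were matched, so a gene without a match here may still be in the sequence table. The remaining entries matched 4 of the 7 genes with 5 entries, and the other Tgfbr1 entry held 1 CAGAC and 0 GC boxes. A match of letters is a description and not a binding site.

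Libraries held 13222005 to 33532595 counts, and the 7 genes were covered by 225 to 19673 counts per library. Levels are TMM-scaled CPM, read counts scaled to a common library size, as mean ± SD of 2 libraries, and changes are log2 ratios ± SE. P-values come from the quasi-likelihood test of edgeR and were adjusted by Benjamini-Hochberg across 13780 genes, and a gene was called where it was under 0.05. Cd4 averaged 1530 to 2630 CPM over the groups, and the erythroid markers Hba-a1 and Hbb-b1 were at 0 in all. Names of the liver and lung libraries hold a digit whose meaning the labels leave out, and the same digit marks PSGL1hi in the former and PSGL1lo in the latter. Selplg encodes PSGL1 and was lower in PSGL1lo than in PSGL1hi libraries of spleen (259 ± 30 against 503 ± 17 CPM), liver (576 ± 51 against 923 ± 20 CPM) and lung (420 ± 52 against 960 ± 49 CPM), with adjusted p = 5e-08, 7.89e-06 and 1.11e-09. Spleen libraries carry numbers of a different series from those of liver and lung, so in any comparison of spleen with liver or lung the tissue cannot be told apart from the library series.

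**Figure D1:**
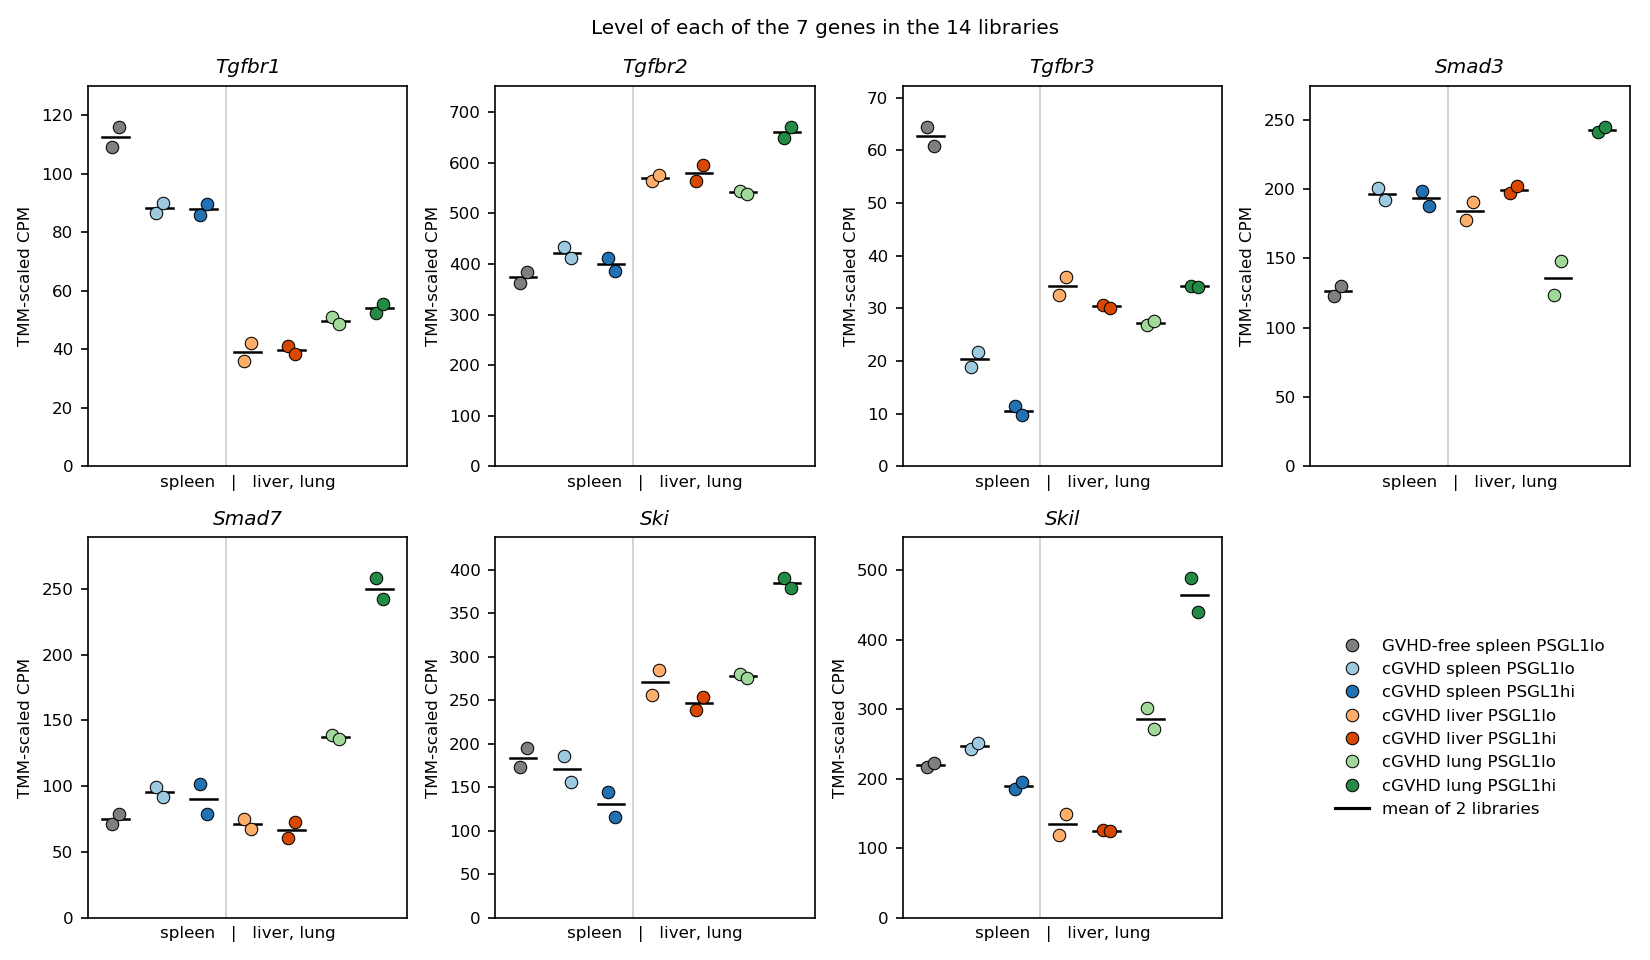
Level of each of the 7 genes in every library, in TMM-scaled CPM on an axis that starts at 0; each point is a library, each bar the mean of 2, and colours mark the 7 groups from left to right in the order of the legend. Lung PSGL1hi cells (dark green) hold the highest mean of Tgfbr2, Smad3, Smad7, Ski and Skil, while GVHD-free spleen cells (grey) hold the highest mean of Tgfbr1 and Tgfbr3.

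The 3 receptor genes did not share a pattern: Tgfbr1 was highest in spleen, Tgfbr2 in liver and lung, and Tgfbr3 in the GVHD-free cells. Tgfbr1, the type I receptor kinase, stood at 109 and 116 CPM in GVHD-free spleen PSGL1lo, 86.6 and 90 CPM in cGVHD spleen PSGL1lo and 85.9 and 89.7 CPM in cGVHD spleen PSGL1hi cells. In liver it stood at 36.1 and 42.2 CPM in PSGL1lo and 41.1 and 38.5 CPM in PSGL1hi cells, and in lung at 51 and 48.6 CPM and 52.4 and 55.6 CPM. No liver or lung library reached the level of any spleen library, and the means spanned a range of 2.87-fold. In the order of the means, GVHD-free cells differed from cGVHD spleen PSGL1lo cells, spleen PSGL1hi from lung PSGL1hi cells and lung PSGL1lo from liver PSGL1hi cells (adjusted p = 0.00357, 3.18e-07 and 0.00422). The last of these neighbours were compared across fraction and tissue, where 45.9% of all genes were called. Neighbours that differed by fraction alone did not pass the test in spleen, lung or liver (adjusted p = 0.964, 0.333 and 0.885).

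Tgfbr2, the ligand-binding type II receptor kinase, stood at 363 and 385 CPM in GVHD-free spleen PSGL1lo, 434 and 411 CPM in cGVHD spleen PSGL1lo and 412 and 387 CPM in cGVHD spleen PSGL1hi cells. Liver values were 563 and 575 CPM in PSGL1lo and 563 and 596 CPM in PSGL1hi cells, and lung values 545 and 539 CPM in PSGL1lo and 649 and 671 CPM in PSGL1hi cells. All liver and lung libraries lay above all spleen libraries, and lung PSGL1hi lay above the rest, within a range of 1.76-fold. Lung PSGL1hi differed from its neighbour in the order, liver PSGL1hi (adjusted p = 0.0261). Liver PSGL1hi, liver PSGL1lo and lung PSGL1lo did not pass the test against their neighbours (adjusted p = 0.826 and 0.411). Nor did cGVHD spleen PSGL1hi against GVHD-free spleen PSGL1lo (log2 change 0.10 ± 0.07, adjusted p = 0.242, with 48.7% of all genes called in that comparison).

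Tgfbr3, the betaglycan coreceptor, had the widest range of the 7 genes, 5.95-fold. It stood at 64.5 and 60.9 CPM in GVHD-free spleen PSGL1lo, 18.9 and 21.8 CPM in cGVHD spleen PSGL1lo and 11.4 and 9.72 CPM in cGVHD spleen PSGL1hi cells. Liver values were 32.5 and 35.9 CPM in PSGL1lo and 30.7 and 30.1 CPM in PSGL1hi cells, and lung values 26.8 and 27.6 CPM in PSGL1lo and 34.3 and 34.1 CPM in PSGL1hi cells. The GVHD-free libraries lay above all others and the cGVHD spleen libraries below all liver and lung libraries. The step from GVHD-free spleen to liver PSGL1lo cells was 0.88 ± 0.10 on the log2 scale (adjusted p = 1.07e-07, with 64.6% of all genes called between these groups). From liver PSGL1lo through lung PSGL1hi and liver PSGL1hi to lung PSGL1lo, no neighbours passed the test (adjusted p = 0.999, 0.196 and 0.205). In the first of these pairs, liver PSGL1lo and lung PSGL1hi, 50.6% of all genes were called.

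Smad3, the receptor-activated Smad that carries the signal to the nucleus, was lowest in GVHD-free spleen and in lung PSGL1lo cells. Its values were 123 and 130 CPM in GVHD-free spleen PSGL1lo, 201 and 192 CPM in cGVHD spleen PSGL1lo and 199 and 188 CPM in cGVHD spleen PSGL1hi cells. In liver they were 178 and 191 CPM in PSGL1lo and 197 and 202 CPM in PSGL1hi cells, and in lung 124 and 148 CPM in PSGL1lo and 241 and 245 CPM in PSGL1hi cells. Lung PSGL1hi lay above every other group, and lung PSGL1lo overlapped with the GVHD-free spleen alone. Lung PSGL1lo did not pass the test against GVHD-free spleen (log2 change 0.10 ± 0.08, adjusted p = 0.275), where 65.4% of all genes were called. Liver PSGL1hi, both cGVHD spleen fractions and liver PSGL1lo followed each other at 200 ± 3.4, 197 ± 6.6, 193 ± 7.9 and 184 ± 9.6 CPM, and no neighbours among them passed (adjusted p = 0.828, 0.846 and 0.473). These pairs had 57.9% (liver PSGL1hi against spleen PSGL1lo), 32.5% (the spleen fractions) and 64.9% (spleen PSGL1hi against liver PSGL1lo) of all genes called.

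The repressor genes Smad7, Ski and Skil were all highest in lung PSGL1hi cells. Smad7, the inhibitory Smad that blocks the receptor, stood at 71.5 and 79.3 CPM in GVHD-free spleen PSGL1lo, 99.4 and 92 CPM in cGVHD spleen PSGL1lo and 102 and 78.9 CPM in cGVHD spleen PSGL1hi cells. Liver held 74.8 and 67.8 CPM in PSGL1lo and 61 and 72.5 CPM in PSGL1hi cells, whereas lung held 139 and 136 CPM in PSGL1lo and 258 and 242 CPM in PSGL1hi cells. All 4 lung libraries lay above the other 10, and the means ranged over 3.74-fold. In the order of the means, lung PSGL1hi, lung PSGL1lo and cGVHD spleen PSGL1lo differed from each other (adjusted p = 7.26e-07 and 0.000186). Spleen PSGL1hi differed from GVHD-free spleen by 0.26 ± 0.11 (adjusted p = 0.0451), with 48.7% of all genes called in that comparison. The libraries of these groups overlapped (102 and 78.9 against 71.5 and 79.3 CPM). The lower neighbours did not pass.

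Ski, the Smad corepressor, stood at 173 and 195 CPM in GVHD-free spleen PSGL1lo, 186 and 156 CPM in cGVHD spleen PSGL1lo and 145 and 116 CPM in cGVHD spleen PSGL1hi cells. It stood at 256 and 285 CPM in liver PSGL1lo, 239 and 254 CPM in liver PSGL1hi, 280 and 276 CPM in lung PSGL1lo and 390 and 379 CPM in lung PSGL1hi cells. Liver and lung lay above spleen in every library, and lung PSGL1hi lay above all. Lung PSGL1lo, liver PSGL1lo and liver PSGL1hi did not pass the test as neighbours (adjusted p = 0.776 and 0.356). Liver PSGL1hi was higher than GVHD-free spleen by 0.42 ± 0.10 (adjusted p = 0.00077), with 63.4% of all genes called in that comparison.

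Skil, the related corepressor SnoN, stood at 217 and 223 CPM in GVHD-free spleen PSGL1lo, 242 and 252 CPM in cGVHD spleen PSGL1lo and 185 and 195 CPM in cGVHD spleen PSGL1hi cells. Liver held 119 and 150 CPM in PSGL1lo and 126 and 125 CPM in PSGL1hi cells, and lung 301 and 271 CPM in PSGL1lo and 488 and 439 CPM in PSGL1hi cells. Liver libraries were the lowest and lung libraries the highest, with spleen between them. Ski and Skil therefore differed in order: liver lay above spleen for Ski and below it for Skil. GVHD-free spleen lay between the cGVHD spleen fractions and did not pass the test against PSGL1lo or PSGL1hi cells (adjusted p = 0.178 and 0.0577). Over the 7 groups, the log2 span of the means was 0.818 to 2.52 for the 7 genes, against a median of 1.03 for all genes tested.

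In cGVHD lung, 6 of the 7 genes were lower in PSGL1lo than in PSGL1hi cells and 0 were higher. Among all genes tested 33% were called, 12.9% higher and 20.1% lower. Smad7 was lower by 1.82-fold (137 ± 1.6 against 250 ± 12 CPM, log2 change -0.86 ± 0.10, adjusted p = 7.26e-07) and Smad3 by 1.79-fold (136 ± 17 against 243 ± 2.6 CPM, -0.84 ± 0.08, adjusted p = 4.11e-08). Skil was lower by 1.62-fold (286 ± 22 against 464 ± 34 CPM, -0.70 ± 0.09) and Ski by 1.38-fold (278 ± 2.7 against 385 ± 7.7 CPM, -0.47 ± 0.10). The receptors moved less, with Tgfbr2 at 542 ± 4 against 660 ± 16 CPM (-0.28 ± 0.06, adjusted p = 0.00164) and Tgfbr3 at 27.2 ± 0.54 against 34.2 ± 0.11 CPM (-0.33 ± 0.10, adjusted p = 0.0144). Tgfbr1 did not pass (49.8 ± 1.7 against 54 ± 2.3 CPM, -0.12 ± 0.09, adjusted p = 0.333). For all 7 genes, Tgfbr1 included, the libraries of the 2 fractions did not overlap, as was so for 66.7% of all genes tested (37.1% lower in PSGL1lo), and the median log2 change of the 7 was -0.47 against -0.03 for all genes. In bulk RNA, fewer cells of a type and less RNA per cell cannot be told apart.

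The Tgfbr3 call in lung was lost without any of the 4 lung libraries: without PSGL1hi replicate 1 or 2 it was -0.34, without PSGL1lo replicate 1 -0.32 and without PSGL1lo replicate 2 -0.31. With library totals as the only scaling, the median of all genes in this comparison moved from -0.03 to 0.12, and the share of higher genes among the called ones from 39% to 65.5%. Under that scaling Smad3, Smad7, Ski and Skil were still called lower, while Tgfbr2 (-0.13) and Tgfbr3 (-0.18) were not called and Tgfbr1 was at 0.03.

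**Figure D2:**
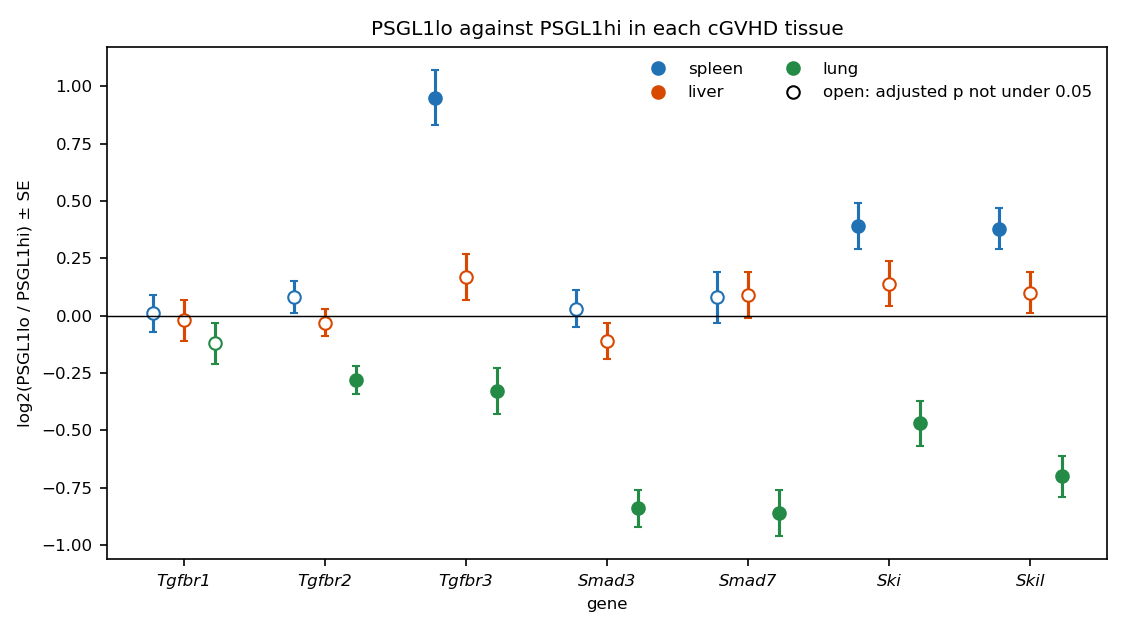
Log2 ratio of PSGL1lo to PSGL1hi ± SE for each gene (x axis) in cGVHD spleen, liver and lung, with filled points where the adjusted p was under 0.05. Lung points of 6 genes lie below 0 and are filled, all liver points are open, and the filled spleen points (Tgfbr3, Ski and Skil) lie above 0.

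Other genes of the pathway were counted by list, and any ranking of named genes is among the called genes at 1 CPM or more in a group. In lung, 12 of 17 genes for ligands and their activation were tested, of which 3 were higher and 4 lower in PSGL1lo cells (median -0.17). Itgb8, an integrin chain that activates latent TGF-beta, was higher at 21.9 against 5.82 CPM (1.91 ± 0.22, adjusted p = 6.98e-07). Lrrc32, which encodes the latent TGF-beta anchor GARP of regulatory T cells, was lower at 4.43 against 15.3 CPM (-1.78 ± 0.17, adjusted p = 3.95e-08). Of 11 other receptors of the superfamily 9 were tested and 1 was lower, the activin receptor Acvr2a (12.2 against 20.8 CPM, -0.76 ± 0.14), with a median of -0.21. Among 14 other Smads and Smad partners 11 were tested, 0 were higher and 4 lower (median -0.10). Runx3, a Runt factor that works with Smads, fell most in this list (267 against 506 CPM, -0.92 ± 0.07). The other 3, named after their values were seen, were Smad4 (-0.37 ± 0.08), the Smad4 ubiquitin ligase gene Trim33 (-0.29 ± 0.07) and Smad2 (-0.25 ± 0.08).

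All 16 regulators of the receptor and Smad complex were tested, 1 was higher and 6 lower (median -0.24). The deubiquitinase gene Usp11 was higher (16.1 against 11 CPM, 0.56 ± 0.15), and of the called genes the corepressor Tgif1 was the most reduced (98.3 against 163 CPM, -0.73 ± 0.09). Of 6 T cell genes that TGF-beta raises 5 were tested and 4 were lower, with a median of -1.70. Foxp3, which specifies regulatory T cells, was 7.29 against 53.1 CPM (-2.86 ± 0.13, adjusted p = 1.06e-12). Of 12 T cell genes that TGF-beta lowers, 11 were lower as well and 0 higher, with a median of -1.24. Granzyme A (Gzma) was 9.93 against 109 CPM (-3.46 ± 0.24, adjusted p = 4.22e-10). Ccr6 of the former list (0.21 ± 0.15) and Il2 of the latter (0.62 ± 0.24) lay above 0 without being called, and both were named after their values were seen.

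**Figure D3:**
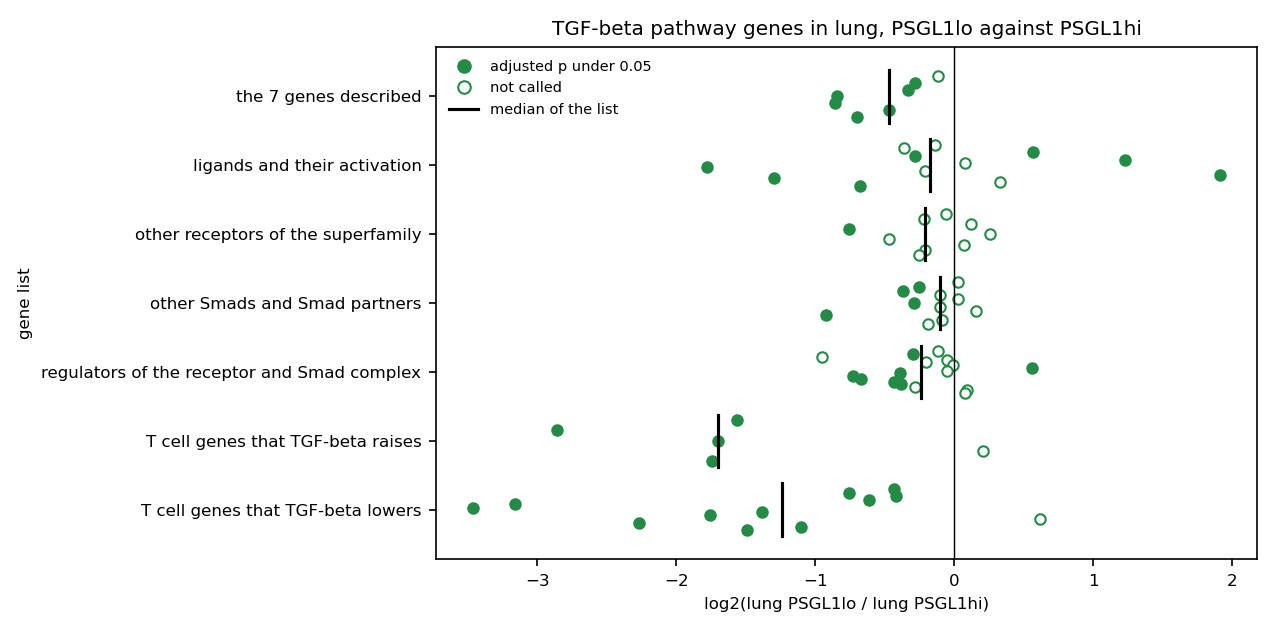
Log2 ratio of lung PSGL1lo to lung PSGL1hi (x axis) for each tested gene of the 7 lists (y axis); filled points had an adjusted p under 0.05, and bars mark list medians. The medians lie below 0 in every list, from -0.10 for other Smads and Smad partners to -1.70 for the T cell genes that TGF-beta raises.

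Markers of other states moved in the same lung comparison, and their part in the results was not tested. In the regulatory T cell list 3 of 6 genes were higher and 3 lower, with a summed level of 754 to 884 CPM in PSGL1lo and 688 to 702 CPM in PSGL1hi cells. The higher ones were Nrp1 (555 against 315 CPM), the largest part of both sums, Ikzf2 (129 against 87.7 CPM) and Itgb8 (21.9 against 5.82 CPM). The lower ones were Foxp3 (7.29 against 53.1 CPM), Lrrc32 (4.43 against 15.3 CPM) and Il2ra (101 against 218 CPM). Of 5 proliferation genes 4 were lower, with sums of 397 to 434 and 923 to 1130 CPM. Among 6 naive and central memory genes 1 was higher and 3 lower, with sums of 2270 to 2540 and 2290 to 2420 CPM. Both CD8 T cell genes were lower (sums of 12.1 to 12.4 and 28.5 to 30.6 CPM), as were both tested NK cell genes (sums of 113 to 150 and 164 to 199 CPM, with Ncr1 and Klra8 at 0 in PSGL1lo cells). Most of the NK cell sums was Eomes (129 against 174 CPM), which is also in the list of T cell genes that TGF-beta lowers. Klrb1c stood at 2.55 against 7.34 CPM. Of 9 immediate early and handling stress genes 5 were lower and 0 higher, with sums of 8160 to 9880 CPM in PSGL1lo and of 10600 CPM in both PSGL1hi libraries. In the myeloid list 1 of 8 genes was higher (sums of 764 to 1150 and 676 to 847 CPM, none at 0).

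In cGVHD spleen, 3 of the 7 genes were higher in PSGL1lo than in PSGL1hi cells, 0 were lower and 4 were not called. Of all genes tested 32.5% were called, 15.8% higher and 16.7% lower. Tgfbr3 was 1.93-fold higher (20.3 ± 2 against 10.5 ± 1.2 CPM, log2 change 0.95 ± 0.12, adjusted p = 2.13e-06). The corepressors Ski (171 ± 22 against 131 ± 21 CPM, 0.39 ± 0.10, adjusted p = 0.00464) and Skil (247 ± 6.5 against 190 ± 7 CPM, 0.38 ± 0.09, adjusted p = 0.00225) were higher by a smaller margin. The Ski call was lost when spleen PSGL1lo replicate 1 (0.25) or PSGL1hi replicate 2 (0.23) was left out. Tgfbr1, Tgfbr2, Smad3 and Smad7 were not called, at log2 changes of 0.01 to 0.08, and the libraries of the 2 fractions overlapped for each of them, while 66% of all genes tested did not overlap. The median of the 7 genes was 0.08, against 0 for all genes.

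The regulators of the receptor and Smad complex were higher in spleen PSGL1lo cells in 7 of 16 genes and lower in 0 (median 0.18). Pmepa1, a TGF-beta target that dampens the pathway, rose most among them (5.46 against 3 CPM, 0.86 ± 0.19). Of 11 tested Smads and partners 4 were higher, led by Runx1 (221 against 147 CPM, 0.59 ± 0.07), and 1 was lower, Runx3 (58.8 against 81.6 CPM, -0.47 ± 0.08), with a median of 0.33. In the ligand list 4 of 12 tested genes were higher and 2 lower (median 0.10), with Itgb8 at 20.3 against 8.92 CPM (1.18 ± 0.22) and Inhba, an activin subunit, at 1.17 against 0.518 CPM (1.18 ± 0.41). Lrrc32 was the most reduced ligand-list gene (1.15 against 4.6 CPM, -1.99 ± 0.24). Of 9 tested receptors 1 was lower, Acvrl1 (1.04 against 2.61 CPM, -1.32 ± 0.43), with a list median of -0.11. Of 5 tested genes that TGF-beta raises 1 was higher, the chemokine receptor Ccr6 (7.66 against 1.23 CPM, 2.63 ± 0.23), and 3 were lower. Among the 12 that it lowers 1 was higher, Il2 (4.86 against 2.41 CPM, 1.01 ± 0.26), and 8 were lower, with Gzma at 23.2 against 99.8 CPM (-2.10 ± 0.23). The medians of these 2 lists were -1.65 and -0.85.

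Beside these spleen values, the proliferation list was lower in all 5 genes (sums of 1180 CPM in both libraries against 2770 to 2980 CPM) and 5 of 8 myeloid genes were lower (153 to 165 against 309 to 335 CPM, none at 0). Among B and plasma cell genes 1 of 6 tested genes was higher and 3 lower, with sums of 19 to 20.3 against 49.7 to 56.2 CPM. The regulatory T cell list had 2 genes higher and 3 lower (676 to 679 against 681 to 694 CPM). Nrp1, the largest part of both sums, stood at 362 against 308 CPM, and Foxp3 at 3.92 against 18.6 CPM. Among 9 immediate early and handling stress genes 6 were higher (4250 to 4640 against 3410 to 3540 CPM). Both CD8 T cell genes (11.8 to 12.3 against 77.5 to 77.6 CPM) and both tested NK cell genes (71 to 71.1 against 132 to 138 CPM) were lower. Most of the NK cell sums was Eomes (68.1 against 129 CPM). Of 6 naive and central memory genes 3 were higher and 1 lower (935 to 969 against 740 to 744 CPM). The part of all these markers in the results was not tested.

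In cGVHD liver, 0 of the 7 genes were called between PSGL1lo and PSGL1hi cells by edgeR's quasi-likelihood test. Of all genes 20.8% were called in this tissue, 8.5% higher and 12.3% lower. At an unadjusted p under 0.05 the count was 0 too, and DESeq2 and limma voom each called 0. The largest log2 changes were those of Tgfbr3 (34.2 ± 2.4 against 30.4 ± 0.4 CPM, 0.17 ± 0.10, adjusted p = 0.256), Ski (0.14 ± 0.10, adjusted p = 0.356) and Smad3 (-0.11 ± 0.08, adjusted p = 0.341). For these 3 genes the libraries of the fractions did not overlap, and for Tgfbr1, Tgfbr2, Smad7 and Skil they did, while 56.5% of all genes tested did not overlap. Without liver PSGL1lo replicate 1, Skil was called higher in PSGL1lo cells (0.26, adjusted p = 0.0372). With library totals as the only scaling, higher genes made up 55.9% of all called genes in place of 40.9%, and the count among the 7 genes was still 0.

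The lists of ligands, receptors, Smads and regulators held few called genes in liver. Ligands and their activation had 1 of 12 tested genes higher, Inhba (1.84 against 0.605 CPM, 1.63 ± 0.32), and 1 lower, Tgfb3 (1.71 against 5.5 CPM, -1.69 ± 0.25). None of 9 tested receptors was called. Of 11 Smads and partners 1 was higher, Runx1 (0.48 ± 0.07), and 2 lower, Runx3 (-0.41 ± 0.07) and the gene of the receptor-binding immunophilin, Fkbp1a (-0.33 ± 0.07, named after its value was seen). Among 16 regulators 2 were higher and 2 lower, with Tgif2 at 9.88 against 6.09 CPM (0.70 ± 0.13) and the ubiquitin ligase Wwp1 at 27 against 38.7 CPM (-0.53 ± 0.15). The T cell genes that TGF-beta raises were lower in 4 of 5 tested, with the interleukin gene Il17a at 0.0918 against 1.67 CPM, where both PSGL1lo libraries lay at or under the level of 3 counts. The genes that it lowers were higher in 1 and lower in 9 of 12, with Gzma at 62.3 against 295 CPM (-2.24 ± 0.21). List medians ran from -0.26 to 0.07 for the first 4 lists and were -2.19 and -0.92 for the T cell lists, against -0.02 for all genes. In the same libraries 4 of 5 proliferation genes were lower in PSGL1lo cells (622 to 653 against 962 to 1000 CPM) and 6 of 9 immediate early and handling stress genes higher and 1 lower (4820 to 5150 against 3620 to 3780 CPM). Both CD8 T cell genes (28 to 31.5 against 141 to 142 CPM) and both tested NK cell genes (157 to 166 against 230 to 236 CPM, with Klra8 at 0 in both fractions) were lower in PSGL1lo cells. Most of the NK cell sums was Eomes (151 against 212 CPM). Of 4 tested hepatocyte genes 3 were higher and 0 lower (42.3 to 49.8 against 17 to 21.7 CPM, none at 0), and the part of these markers in the results was not tested.

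The difference between fractions was itself tested between tissues. Between lung and spleen it was more negative in lung for 6 of the 7 genes, among 16.6% of all genes called in this test (5.51% higher and 11.1% lower). Tgfbr3 led with a difference of -1.28 ± 0.16 on the log2 scale (adjusted p = 6.16e-06), followed by Skil (-1.07 ± 0.12), Smad7 (-0.94 ± 0.15), Smad3 (-0.86 ± 0.11), Ski (-0.85 ± 0.14) and Tgfbr2 (-0.36 ± 0.09, adjusted p = 0.00819). Tgfbr1 was not called (-0.12 ± 0.12, adjusted p = 0.548). With library totals as the only scaling the median of all genes in this test moved to 0.11, higher genes went from 33.3% to 60.5% of the called ones, and Tgfbr2 was not called (-0.24). Tgfbr2 was not called either without lung PSGL1lo replicate 2 (-0.31) or spleen PSGL1hi replicate 2 (-0.26).

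Between lung and liver, which share a library series, the difference was more negative in lung for 5 of the 7 genes, among 5.97% of all genes called (2.08% higher and 3.89% lower). The values were -0.96 ± 0.15 for Smad7 (adjusted p = 0.000195), -0.80 ± 0.12 for Skil (0.000256), -0.72 ± 0.11 for Smad3 (0.000249), -0.60 ± 0.14 for Ski (0.00797) and -0.50 ± 0.14 for Tgfbr3 (0.0374), with adjusted p in brackets. Tgfbr2 (-0.26 ± 0.09, adjusted p = 0.11) and Tgfbr1 (-0.09 ± 0.12) were not called, and DESeq2 called Tgfbr2 (adjusted p = 0.0389). The Tgfbr3 call was lost without liver PSGL1hi replicate 1 (-0.51) or 2 (-0.49), liver PSGL1lo replicate 2 (-0.43), lung PSGL1hi replicate 1 (-0.50) or 2 (-0.50) and lung PSGL1lo replicate 1 (-0.48) or 2 (-0.49). The Ski call was lost without liver PSGL1hi replicate 1 (-0.56). Higher genes made up 34.9% of all called genes here and 52.7% with library totals as the only scaling, where Tgfbr3 was not called (-0.42).

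Between liver and spleen the difference was called for Tgfbr3 alone of the 7 genes, more negative in liver (-0.78 ± 0.15, adjusted p = 0.0041). Of all genes 6.84% were called, 2.64% higher and 4.2% lower. Higher genes made up 38.6% of the called ones, and 51.8% with library totals as the only scaling. Skil was at -0.27 ± 0.13 (adjusted p = 0.205) and was called without liver PSGL1lo replicate 2 (-0.45). The 3 tests between tissues share libraries by pairs and do not support each other independently.

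In spleen PSGL1lo cells, Tgfbr3 and Tgfbr1 were lower and Smad3 and Smad7 higher in cGVHD than in GVHD-free animals. Of the 7 genes 2 were higher and 2 lower, where 27.5% of all genes were called (14.7% higher and 12.8% lower). Tgfbr3 fell 3.08-fold, from 62.7 ± 2.6 to 20.3 ± 2 CPM (log2 change -1.62 ± 0.11, adjusted p = 1.27e-10), and Tgfbr1 1.27-fold, from 112 ± 5.1 to 88.3 ± 2.4 CPM (-0.35 ± 0.09, adjusted p = 0.00357). Smad3 rose 1.55-fold, from 127 ± 5 to 197 ± 6.6 CPM (0.63 ± 0.08, adjusted p = 3.06e-06), and Smad7 1.27-fold, from 75.4 ± 5.5 to 95.7 ± 5.2 CPM (0.34 ± 0.11, adjusted p = 0.0198). Tgfbr2 (0.18 ± 0.07, adjusted p = 0.0516), Skil (0.17 ± 0.09, adjusted p = 0.178) and Ski (-0.11 ± 0.10, adjusted p = 0.482) were not called. Among the 7 genes the libraries of the 2 groups overlapped for Ski alone, and 64.9% of all genes tested did not overlap. The cGVHD libraries here are also the PSGL1lo side of the spleen comparison of fractions. The Tgfbr1 call was lost without GVHD-free replicate 2 (-0.29), and the Smad7 call without GVHD-free replicate 1 (0.27) or cGVHD spleen PSGL1lo replicate 1 (0.30). DESeq2, limma voom and the fit to these groups alone called Tgfbr2 (adjusted p = 0.0322, 0.0499 and 0.0204), and the fit to these groups alone called Skil (adjusted p = 0.0296).

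In the wider pathway, 3 of 12 tested ligand and activation genes were higher and 4 lower in cGVHD (median 0.23, against 0.01 for all genes). The matrix protein gene Thbs1, an activator of latent TGF-beta, was 12.7 against 2.85 CPM (2.13 ± 0.29), and Lrrc32 was 1.15 against 20 CPM (-4.11 ± 0.22, adjusted p = 4.51e-12). Of 9 tested receptors 2 were higher and 2 lower (median 0.43), with the BMP receptors Bmpr1a at 6.37 against 3.16 CPM (1 ± 0.22) and Bmpr2 at 32.9 against 61 CPM (-0.89 ± 0.12). Among 11 Smads and partners 2 were higher and 3 lower (median -0.10), with Runx1 at 221 against 123 CPM (0.85 ± 0.07) and Fkbp1a at 46.1 against 63.2 CPM (-0.45 ± 0.08). Of 16 regulators 2 were higher and 5 lower (median -0.18), with the kinase gene Sik1 at 301 against 181 CPM (0.73 ± 0.07) and Pmepa1 at 5.46 against 15.2 CPM (-1.47 ± 0.16). The T cell genes that TGF-beta raises were lower in 4 of 5 tested (median -2.37), with Foxp3 at 3.92 against 56.3 CPM (-3.85 ± 0.15). Those that it lowers split into 4 higher and 4 lower of 12 (median 0.11), with the Th1 factor Tbx21 at 115 against 36.9 CPM (1.63 ± 0.12) and the killer cell receptor gene Klrg1 at 24.1 against 42.2 CPM (-0.81 ± 0.13).

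Beside the disease comparison, 5 of 6 regulatory T cell genes were lower in cGVHD, and the sum of the list went from 1570 to 1610 CPM in GVHD-free to 676 to 679 CPM in cGVHD cells. The largest part of the GVHD-free sum was Ikzf2, at 1040 CPM there and 240 CPM in cGVHD cells. Nrp1, the largest part of the cGVHD sum, stood at 337 and 362 CPM. Of 6 naive and central memory genes 4 were lower and 1 higher (1260 to 1280 against 935 to 969 CPM), and 5 of 6 tested B and plasma cell genes were lower (65.9 to 67.4 against 19 to 20.3 CPM). Of 5 proliferation genes 3 were higher (859 to 867 against 1180 CPM). The part of these differences in the values of the 7 genes was not tested.

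**Figure D4:**
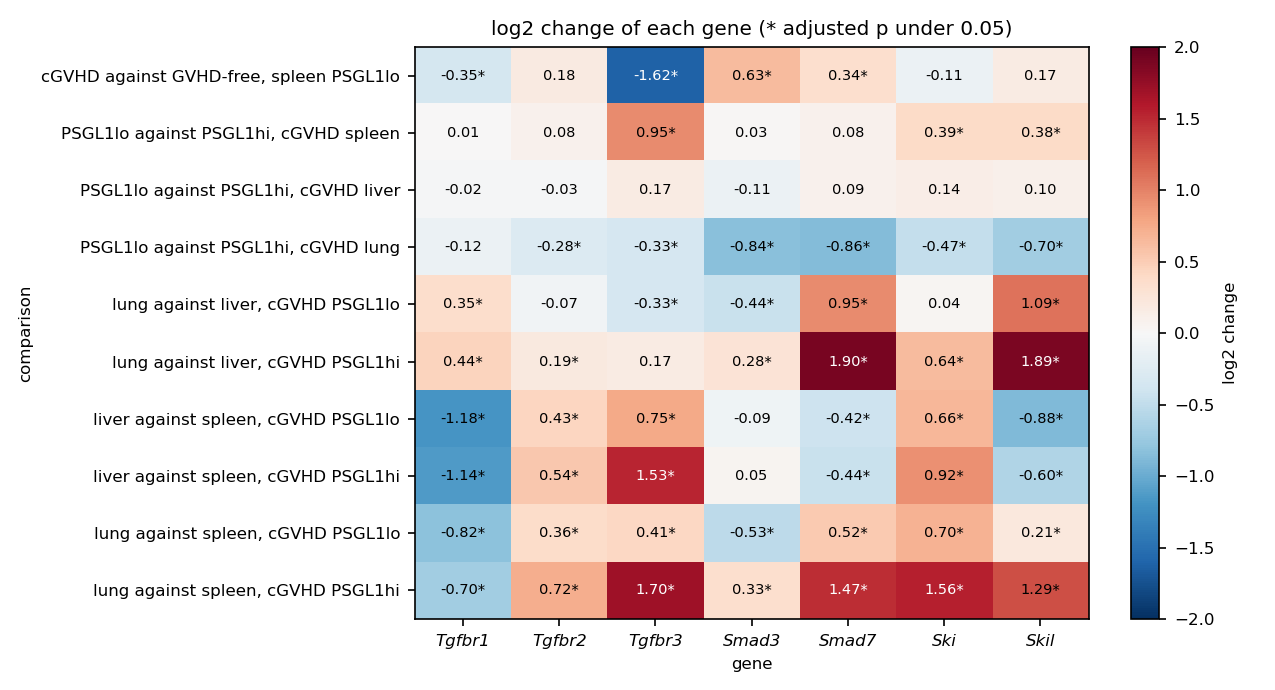
Log2 change of the 7 genes (columns) in the 10 comparisons of 2 groups (rows), on a colour scale from -2 to 2 with stars where the adjusted p was under 0.05. Smad7 and Skil are the highest in lung against liver PSGL1hi cells (1.90 and 1.89), and Tgfbr1 is below 0 in all 4 comparisons with spleen.

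Smad7 and Skil were higher in lung than in liver in both fractions. In PSGL1hi cells 6 of the 7 genes were higher in lung and 0 lower, with 38.4% of all genes called (20.1% higher and 18.3% lower). Smad7 was 3.74-fold higher (250 ± 12 against 66.8 ± 8.1 CPM, log2 change 1.90 ± 0.10, adjusted p = 3.92e-12) and Skil 3.7-fold (464 ± 34 against 125 ± 0.56 CPM, 1.89 ± 0.09, adjusted p = 4.34e-13). Ski (0.64 ± 0.10), Tgfbr1 (0.44 ± 0.09), Smad3 (0.28 ± 0.08) and Tgfbr2 (0.19 ± 0.06) were higher by 1.14- to 1.56-fold, and Tgfbr3 was not called (0.17 ± 0.10, adjusted p = 0.196). With library totals as the only scaling the median of all genes was -0.14, higher genes went from 52.3% to 32.9% of the called ones, and Tgfbr2 (0.05) and Smad3 (0.15) were not called. Smad3 was not called either without liver PSGL1hi replicate 1 (0.27) or lung PSGL1hi replicate 2 (0.26). Tgfbr2 was not called without liver PSGL1hi replicate 1 (0.15) or 2 (0.23), or lung PSGL1hi replicate 1 (0.20) or 2 (0.15).

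In PSGL1lo cells 3 of the 7 genes were higher in lung than in liver and 2 lower, with 39.9% of all genes called (19.6% higher and 20.4% lower). Skil was 2.13-fold higher (286 ± 22 against 135 ± 22 CPM, 1.09 ± 0.09, adjusted p = 3.37e-09), Smad7 1.93-fold (137 ± 1.6 against 71.3 ± 5 CPM, 0.95 ± 0.10, adjusted p = 2.56e-07) and Tgfbr1 1.28-fold (0.35 ± 0.09, adjusted p = 0.00282). Smad3 was lower (136 ± 17 against 184 ± 9.6 CPM, -0.44 ± 0.08, adjusted p = 0.00016), as was Tgfbr3 (-0.33 ± 0.10, adjusted p = 0.012). Tgfbr2 and Ski were not called (-0.07 ± 0.06 and 0.04 ± 0.10). The Tgfbr1 call was lost without liver PSGL1lo replicate 1 (0.23). The Tgfbr3 call was lost without liver PSGL1lo replicate 2 (-0.26), without lung PSGL1lo replicate 1 (-0.32) and in the fit to these groups alone (-0.32).

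Regulators of the receptor and Smad complex were higher in lung in 8 of 16 genes in PSGL1hi and 7 of 16 in PSGL1lo cells, and lower in 1 and 2 (medians 0.29 and 0.20). Tgif1 led in both fractions (163 against 24.3 CPM, 2.74 ± 0.10, in PSGL1hi; 98.3 against 27.1 CPM, 1.86 ± 0.10, in PSGL1lo), and the deubiquitinase gene Usp4 fell most (-0.58 ± 0.07 and -0.49 ± 0.07). Ligand and activation genes were higher in 6 and 8 of 12 tested and lower in 1 and 2 (medians 0.43 and 0.64). Thbs1 rose most, from 0.707 to 15.1 CPM in PSGL1hi (4.45 ± 0.32) and from 1.53 to 19.1 CPM in PSGL1lo cells (3.71 ± 0.28). Other receptors were higher in 6 and 5 of 9 tested and lower in 1 each (medians 1.03 and 1.01), with Acvrl1 rising from 0.528 to 3.02 CPM and from 0.349 to 3.28 CPM. Of 11 Smads and partners 6 and 3 were higher and 0 lower, led by Smad5 of the BMP branch (0.71 ± 0.11 and 0.72 ± 0.11), with medians of 0.26 and 0.03. The T cell genes that TGF-beta raises were higher in 4 of 5 tested in each fraction and lower in 0 (medians 0.97 and 0.80), with Il17a at 6.07 against 1.67 CPM in PSGL1hi cells. Those that it lowers were higher in 7 and 4 of 12 and lower in 4 and 5 (medians 0.32 and -0.27). The egress receptor gene S1pr1 rose most in both fractions (1.51 ± 0.09 and 1.64 ± 0.09), while the perforin gene Prf1 fell most in PSGL1hi (-1.52 ± 0.08) and the granzyme gene Gzmb in PSGL1lo cells (-2.84 ± 0.16).

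Lung libraries also held more stress and myeloid transcript than liver libraries, and the part of either in these differences was not tested. Of 9 immediate early and handling stress genes 8 were higher in lung and 0 lower in PSGL1hi cells, and 6 were higher and 2 lower, Fosb and Egr1, in PSGL1lo cells, with sums of 10600 against 3620 to 3780 CPM in PSGL1hi and 8160 to 9880 against 4820 to 5150 CPM in PSGL1lo cells. The heat shock genes Hspa1a and Hspa1b, near-identical copies whose counts are uncertain, stood at 1420 and 2020 CPM in lung PSGL1hi and 3 and 7.23 CPM in liver PSGL1hi cells, and at 1130 and 1540 CPM in lung PSGL1lo and 3.62 and 8.91 CPM in liver PSGL1lo cells. All 8 myeloid genes were higher in lung PSGL1hi cells, with sums of 676 to 847 against 34.3 to 47.5 CPM, and 764 to 1150 against 24 to 48.8 CPM in PSGL1lo cells, none at 0 in any of these groups. In PSGL1hi cells 6 of 6 naive and central memory genes and 5 of 6 regulatory T cell genes were higher in lung. Surfactant and other lung epithelium genes summed to 44.2 to 52 CPM in lung PSGL1hi and 12.1 to 95.3 CPM in lung PSGL1lo cells, against 11.5 to 13.1 CPM over liver, where Sftpc, Sftpb and Sftpa1 were at 0. Hepatocyte genes summed to 17 to 49.8 CPM over liver libraries, and all 5 were at 0 in lung PSGL1lo cells.

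Against spleen, liver and lung libraries differed in most of the 7 genes, but also in most of the genes tested, and the library series moves with the tissue. Liver cells differed from spleen cells in 6 of 7 genes in either fraction, 3 higher and 3 lower, where 57.7% of all genes were called in PSGL1lo (28.7% higher and 29% lower) and 57.9% in PSGL1hi cells (28.5% higher and 29.4% lower). Tgfbr1 was lower in liver (-1.18 ± 0.09 in PSGL1lo and -1.14 ± 0.09 in PSGL1hi cells), as were Skil (-0.88 ± 0.09 and -0.60 ± 0.09) and Smad7 (-0.42 ± 0.11 and -0.44 ± 0.10). Tgfbr2 (0.43 ± 0.07 and 0.54 ± 0.06), Ski (0.66 ± 0.10 and 0.92 ± 0.10) and Tgfbr3 (0.75 ± 0.11 and 1.53 ± 0.11) were higher. Smad3 was not called (-0.09 ± 0.08 and 0.05 ± 0.08). The Smad7 call in PSGL1hi cells was lost without spleen PSGL1hi replicate 1 (-0.25).

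Lung cells differed from spleen cells in all 7 genes in either fraction. In PSGL1lo cells 5 were higher and 2 lower, with 60% of all genes called (29.6% higher and 30.4% lower). In PSGL1hi cells 6 were higher and 1 lower, with 61.8% called (30.7% higher and 31% lower). Tgfbr1 was lower in both (-0.82 ± 0.09 and -0.70 ± 0.08), and Smad3 was lower in PSGL1lo (-0.53 ± 0.08) and higher in PSGL1hi cells (0.33 ± 0.08). Higher values in PSGL1hi cells were 1.70 ± 0.11 for Tgfbr3, 1.56 ± 0.10 for Ski, 1.47 ± 0.10 for Smad7, 1.29 ± 0.09 for Skil and 0.72 ± 0.07 for Tgfbr2. In PSGL1lo cells the same 5 genes were at 0.41 ± 0.11, 0.70 ± 0.10, 0.52 ± 0.10, 0.21 ± 0.09 and 0.36 ± 0.07. The Skil call in PSGL1lo cells was lost without lung PSGL1lo replicate 1 (0.14), spleen PSGL1lo replicate 1 (0.19) or replicate 2 (0.25) and with library totals only (0.19). With library totals only the median of all genes in PSGL1hi cells was -0.18, higher genes went from 49.7% to 38.8% of the called ones, and Smad3 was not called (0.18).

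Of the 13780 genes tested, those whose log2(CPM + 0.5) was most like that of each of the 7 genes were named by Pearson's r over the 14 libraries, up to 3 per gene with the least alike gene. These values are a description, since libraries of a tissue share their series and the genes were picked as extremes. Skil was most like Pnrc1 (0.986), Gna13 (0.982) and the phosphatase gene Dusp8 (0.979), and Smad7 most like Prr7 (0.971), Gramd3 (0.959) and Mxd1, a Max partner (0.957). Within the 8 liver and lung libraries alone these 6 r were 0.96 to 1, and within the 6 spleen libraries 0.54 to 0.94. Ski was most like the histone methyltransferase gene Dot1l (0.983) and Mnt (0.972). Smad3 was most like Rxra (0.926), Prdm1, which encodes the transcriptional repressor Blimp-1 (0.925), and Slc35e1 (0.923).

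Among the receptors, Tgfbr1 was most like Zfp281 (0.989), Itgav, an integrin chain that takes part in freeing TGF-beta from its latent form (0.988), and Trp53inp1 (0.981). Tgfbr2 was most like the formin gene Diaph1 (0.989), Tmem63a (0.985) and Zdhhc18 (0.984). Tgfbr3 was most like the clock gene Per2 (0.935), Rps6ka2 (0.931) and Slc2a9 (0.926). For Tgfbr3 these r were 0.96 to 0.97 within spleen and -0.41 to 0.47 within liver and lung, so the likeness did not hold in the liver and lung libraries. The least alike genes were Skp1a for Tgfbr2 (-0.979), Slc9b2 for Smad3 (-0.958), Mesd for Smad7 (-0.966), Chek2 for Ski (-0.967) and Tmem229b for Skil (-0.946). Lama5 was the least alike for Tgfbr3 (-0.948), with r of -0.97 within spleen and only -0.11 within liver and lung. For Tgfbr1 the least alike was an entry with a date-like name of the kind spreadsheet software makes (-0.989).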

How the data were processed

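RNA from sorted CD4+ T cells went into Kapa mRNA HyperPrep libraries (labels' protocols). The authors deposited whole-number read counts per gene for 14 libraries, and mm9, TopHat2 2.0.8 and HTSeq are named in the submitters' processing notes. The strand setting used in counting is given in none of these sources, so it is not known whether reads of overlapping and antisense genes were told apart. The table holds 26 names turned into dates by a spreadsheet, and its columns were matched to samples by name.

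Counts were fitted with edgeR 4.0.16 in R 4.3.3: TMM scaling, the low-count filter filterByExpr, 1 mean per group over all 14 libraries, and the quasi-likelihood F test. P-values were adjusted by Benjamini-Hochberg across 13780 genes, with calls at an adjusted p under 0.05. All groups share the estimate of spread (common biological coefficient of variation 7.35%, 7 residual degrees of freedom), and an SE is the log2 change divided by the square root of F. A level of 3 counts was 0.0859 to 0.223 CPM. The fit was also run on simulated counts in which a small set of genes changed in 1 group only. Far more genes differ between the real groups, so that run does not bear on the calls given here. Replicates within a group differed by more than counting noise (chi-square of 2.97 to 19 for each degree of freedom).

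The alternatives were DESeq2 1.42.0 (size factors, Wald test), limma 3.58.1 voom, library totals as the only scaling, no filter, a filter of 1 CPM in 4 libraries, the compared groups alone, a replicate block and leaving out each library. From each pathway list the called genes with the largest rise and fall at 1 CPM or more in a group were named, and per described gene the 3 most and 1 least alike. A few genes that these rules pick are not reported here. The 7 genes and the lists were chosen with earlier results of these data known. Sequences were credited to RefSeq on GRCm38.p6, a build other than that of the counts, and no coordinate was moved between builds.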

Additional observations from a re-analysis of the deposited data

Results flagged for a closer look

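The difference between PSGL1lo and PSGL1hi cells was itself different between tissues for 6 of the 7 genes, as tested by the interaction term of edgeR's quasi-likelihood model. Values are differences of log2 ratios ± SE, and a negative value means that the ratio of PSGL1lo to PSGL1hi was lower in the tissue named first. Between lung and spleen these were -1.28 ± 0.16 for Tgfbr3, -1.07 ± 0.12 for Skil, -0.94 ± 0.15 for Smad7, -0.86 ± 0.11 for Smad3, -0.85 ± 0.14 for Ski and -0.36 ± 0.09 for Tgfbr2, where 16.6% of all genes were called. Between lung and liver they were -0.96 ± 0.15 for Smad7, -0.80 ± 0.12 for Skil, -0.72 ± 0.11 for Smad3, -0.60 ± 0.14 for Ski and -0.50 ± 0.14 for Tgfbr3, where 5.97% of all genes were called. This Tgfbr3 call was lost without any lung library, without either liver PSGL1hi library and without liver PSGL1lo replicate 2 (-0.51 to -0.43). The Ski call between lung and liver was lost without liver PSGL1hi replicate 1 (-0.56). The Tgfbr2 call between lung and spleen was lost with library totals as the only scaling (-0.24). It was also lost without lung PSGL1lo replicate 2 (-0.31) or spleen PSGL1hi replicate 2 (-0.26). Between liver and spleen the value was -0.78 ± 0.15 for Tgfbr3, where 6.84% of all genes were called. Spleen and the other tissues come from different library series, while lung and liver share a series.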

How the results depend on the processing

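Of 1176 values of the 7 genes under the alternatives, 1101 kept their direction and their side of the threshold, 42 lost the call, 7 gained one and 26 changed sign, none of them a called value. Sign changes with library totals only were 0.04 (Tgfbr1) and 0.04 (Tgfbr2) for fractions in liver, 0.03 (Tgfbr1) in lung, 0.01 (Tgfbr1) for liver minus spleen and -0.01 (Ski) for lung against liver PSGL1lo. With each library left out in turn, the values that changed sign ranged from -0.24 to 0.02 for Ski in disease; for fractions in spleen from -0.02 to 0.07 for Smad3, -0.10 to 0.28 for Smad7 and -0.03 to 0.04 for Tgfbr1; and in liver from -0.07 to 0.26 for Skil, -0.02 to 0.22 for Smad7, -0.14 to 0.09 for Tgfbr1 and -0.07 to 0.01 for Tgfbr2. For liver minus spleen they ranged from -0.16 to 0.21 for Smad7 and -0.15 to 0.08 for Tgfbr1, for lung minus liver from -0.21 to 0.03 for Tgfbr1, for lung against liver PSGL1lo from -0.04 to 0.12 for Ski and for liver against spleen PSGL1hi from -0.01 to 0.08 for Smad3. Without 1 library the calls over all genes ranged from 1552 to 3696 for fractions in liver (0 to 1 of the 7 genes), 331 to 2497 for liver minus spleen (1 to 2), 1517 to 2047 for lung minus spleen and 475 to 1320 for lung minus liver (3 to 5). The highest liver minus spleen and lung minus liver counts came without liver PSGL1lo replicate 2. The fit to the compared groups alone called 591 genes for liver minus spleen, against 943. The cause of these changes was not tested.

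With the replicate block the calls of the 7 genes were as without it in all 13 comparisons, with 4472 genes called for fractions in lung, 4416 in spleen and 2800 in liver. Deviations of same-numbered libraries had r of -0.127 to 0.144 over 21 pairs of groups. Such values cannot settle whether the numbers pair the samples, since noise of single libraries could hide a shared animal. With 2 libraries a group, a small difference such as those of liver fractions was not detectable at this precision.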

Other observations

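Other genes of the TGF-beta pathway also differed between tissues in how the PSGL1 fractions compared. For the ratio of PSGL1lo to PSGL1hi in lung minus that in spleen, 7 of 11 tested Smads and partners were called lower and 0 higher (median -0.43, against -0.02 for all genes). The share of all genes called in this test was 16.6%, with 5.51% higher and 11.1% lower. Crebbp, the gene of a Smad coactivator, had the lowest value among the called genes of that list (-0.69 ± 0.11, adjusted p = 0.000118). Of 16 regulators of the receptor and Smad complex 6 were lower and 0 higher (median -0.30), with Pmepa1 at -1.25 ± 0.22 (adjusted p = 0.000408). In the ligand list 4 of 12 were lower and 0 higher (median -0.08), with the processing protease gene Furin at -1.40 ± 0.18 (adjusted p = 1.36e-05). Of 12 T cell genes that TGF-beta lowers 7 were lower and 2 higher (median -0.61), the latter being Eomes (0.49 ± 0.15) and Prf1 (0.59 ± 0.13). In this test 1 of 9 receptors was lower, Acvr2a (-0.65 ± 0.21), and 1 of 5 T cell genes that TGF-beta raises, Ccr6 (-2.42 ± 0.28), with 0 higher in both lists.

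For the ratio of PSGL1lo to PSGL1hi in lung minus that in liver, 2 of 12 ligand and activation genes were called higher, Itgb8 (1.43 ± 0.31) and Tgfb3 (1.33 ± 0.34). In the same list 4 were called lower (median -0.33). Higher and lower here refer to that ratio and not to the level in lung. The share of all genes called in this test was 5.97%, with 2.08% higher and 3.89% lower. Of 11 Smads and partners 2 were lower, Runx1 (-0.32 ± 0.10) and Runx3 (-0.51 ± 0.10), with 0 higher, and 0 of 9 receptors were called. Of 16 regulators the ratio was lower in lung for 4 and higher for 0 (median -0.07, against -0.01 for all genes). Tgif2 was lowest among the called ones (-1.37 ± 0.18, adjusted p = 3.19e-05). Of 5 tested T cell genes that TGF-beta raises 2 were lower and 0 higher (median -0.09), with Itgae, the CD103 chain, at -0.86 ± 0.13 (adjusted p = 0.000129). Of 12 that it lowers 6 were lower and 0 higher (median -0.30), with Gzmb at -1.59 ± 0.20. The 2 comparisons share the lung libraries.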
